A study of Mus musculus with 9 samples.

Results

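The BCL2 family sets whether the mitochondria of a cell release the factors that start apoptosis. Anti-apoptotic members (Bcl2, Bcl2l1, which encodes BCL-XL, and Mcl1) hold the outer mitochondrial membrane closed by binding their relatives. The effectors Bax and Bak1 form pores in that membrane, and the BH3-only members (Bcl2l11 or BIM, Bbc3 or PUMA, Pmaip1 or NOXA, Bid and Bad) either neutralise the anti-apoptotic proteins or activate the effectors. In developing T cells, where BCL2, BCL-XL and MCL1 act at different stages of maturation, BIM is a known mediator of the death of self-reactive cells. The 10 genes named here were taken as a fixed list of symbols, and each was found once among the 53380 rows of the count tables.

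RNA was sequenced from a mouse T-ALL (acute lymphoblastic leukemia of the T lineage) that carries a human MYC transgene, written hMYC here, which doxycycline turns off. Over 48 h the MYC on cells were mock treated, the MYC intermediate cells received doxycycline at 20 pg/mL and the MYC off cells at 500 pg/mL. Each of the 3 groups had 3 libraries. The study derived its T-ALL lines from tumors of EμSRα-tTA/tet-O-MYC mice, in which the tTA activator that drives the transgene is made from a lymphoid promoter, and the labels do not say which line or clone was sequenced. Both treated groups received doxycycline and the MYC on group did not, so that the agent and the loss of MYC cannot be told apart in these libraries. Library totals ran from 18705516 to 39678799 counts. Levels are given as CPM, in which the counts of each library are scaled to 1 common total. Each change is relative to the library total. Total RNA per cell cannot be read from these libraries, so that a relative rise or fall need not be one per cell. Less RNA of a gene per cell and fewer cells with that RNA cannot be told apart either.

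hMYC followed the labels. Its libraries ranged over 1190 to 1340 CPM without doxycycline, 383 to 428 CPM at the lower dose and 3.26 to 4.08 CPM at the higher dose, so that the mean was 32.4% of its untreated level at the lower dose and 0.300% at the higher. The cells carried T cell markers throughout, and the 13 listed markers, Lck and Cd8b1 among them, were all higher in MYC off than in MYC on (summed level 11553 to 12030 CPM in MYC off, against 5528 to 5689 CPM in MYC on). Of the markers of other lineages, Lyz2, Cd14, S100a8, Pax5, Ncr1 and Cdh5 were at 0 counts in all 9 libraries. The summed B cell list stood at 32.1 to 33.8 CPM in MYC off and 77.5 to 94.8 CPM in MYC on, nearly all of it Ighm. The summed myeloid list (40.6 to 43.6 CPM in MYC off and 26.6 to 30.9 CPM in MYC on, mostly Itgam, which was called higher in MYC off, and Csf1r, which was called lower) and the summed stromal and endothelial list (209 to 228 CPM in MYC off and 89.4 to 94.3 CPM in MYC on, mostly Pecam1) stood higher in MYC off. The part of these lists in the results was not tested.

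When MYC was turned off, the anti-apoptotic members rose and 3 of the 4 called pro-apoptotic members fell. All 3 anti-apoptotic members rose in MYC off relative to MYC on, by 17.1-fold for Bcl2, 1.70-fold for Mcl1 and 1.56-fold for Bcl2l1. The effector Bax fell to 48.1% and the BH3-only members Bid and Bbc3 fell to 50.8% and 63.4% of their MYC on levels, whereas Bcl2l11 rose 1.31-fold. In all, 4 members were higher and 3 lower among the 9 that passed the count filter, at an adjusted p below 0.01 in edgeR's quasi-likelihood test. This is a share to be read against a wide response, since 54.9% of the 14098 genes tested passed the same threshold, 27.5% higher and 27.4% lower. Bad and Bak1 did not pass, and Pmaip1 had no counts to test.

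Between MYC intermediate and MYC on, 3 members were higher (Bcl2, Bcl2l1 and Mcl1) and 2 lower (Bax and Bid), where 34.6% of all genes tested were called, 17.4% higher and 17.2% lower. Between MYC off and MYC intermediate, 3 were higher (Bcl2, Mcl1 and Bcl2l11) and 2 lower (Bax and Bid), against 24.7% of all genes, 9.95% higher and 14.7% lower. These 3 comparisons share libraries with each other and are not independent. Bcl2, Mcl1, Bax and Bid were therefore the members called at each step of the titration.

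**Figure D1:**
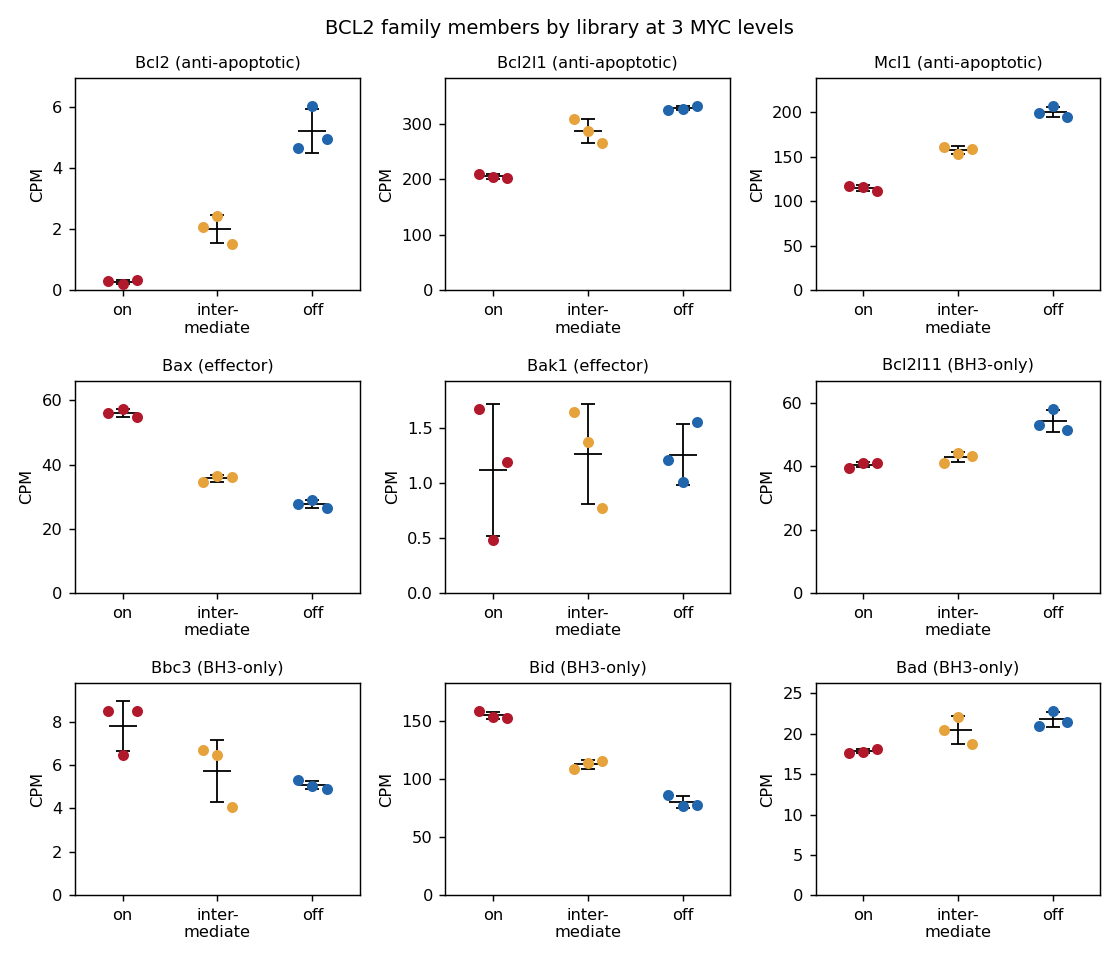
Level of the 9 detected BCL2 family members (vertical axes, CPM, each starting at 0) in the 3 libraries of MYC on, MYC intermediate and MYC off (horizontal axes). Points are libraries, and bars are the mean ± SD of 3 libraries. The groups stand apart for Bcl2, Bcl2l1, Mcl1, Bax and Bid, and overlap for Bak1, whose libraries lie between 0.481 and 1.67 CPM.

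Bcl2, the founding anti-apoptotic gene of the family, had the largest fold change of the 9 tested members and, per length, one of the lowest levels. It had 6, 4 and 10 counts (0.295, 0.214 and 0.341 CPM) in the MYC on libraries, 67, 66 and 44 counts (2.08, 2.44 and 1.53 CPM) in MYC intermediate and 184, 162 and 156 counts (4.64, 6.01 and 4.94 CPM) in MYC off. The 3 groups did not overlap, and the highest MYC on library lay well below the lowest MYC intermediate library. The log2 fold change was 4.09 ± 0.27 (SE) in MYC off against MYC on (adjusted p = 2.51e-09, edgeR), 2.78 ± 0.30 in MYC intermediate against MYC on (adjusted p = 2.16e-06) and 1.31 ± 0.19 in MYC off against MYC intermediate (adjusted p = 6.24e-05). Leaving out each library in turn moved the first of these between 3.94 and 4.28. With 20 counts in all 3 MYC on libraries together, the size of the fold rests on few reads at its low end.

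The exons of Bcl2 (chromosome 1, 106538178 to 106714274, minus strand, mm10) share bases with an antisense gene, D630008O14Rik. That gene had 3 counts in MYC on, 29 in MYC intermediate and 78 in MYC off. This equals 15% of the Bcl2 counts in MYC on, 16.4% in MYC intermediate and 15.5% in MYC off. Its log2 fold change in MYC off against MYC on was 4.04 ± 0.64 (adjusted p = 4.59e-05, edgeR). The library kit does not mark the strand, so reads of the shared bases cannot be assigned to one of the genes by strand.

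Bcl2l1 had the highest level of the anti-apoptotic members and rose at the lower dose. Its libraries stood at 210, 204 and 202 CPM in MYC on, 308, 287 and 266 in MYC intermediate and 324, 327 and 331 CPM in MYC off. MYC intermediate spread more widely than the other groups (SD of 21.3 CPM, against 3.60 CPM in MYC off and 4.12 CPM in MYC on), but none of its libraries reached either neighbour. On the log2 scale it rose by 0.64 ± 0.06 in MYC off against MYC on (adjusted p = 1.58e-07, edgeR) and by 0.50 ± 0.06 in MYC intermediate against MYC on (adjusted p = 7.39e-06). The difference between MYC off and MYC intermediate did not pass (0.15 ± 0.06, adjusted p = 0.0685), and it was 0.088 without replicate 3 of MYC intermediate (adjusted p = 0.291) and 0.21 without replicate 1 (adjusted p = 0.0108).

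Mcl1, whose short-lived protein guards many lymphoid cells, was higher at each step. It stood at 117, 117 and 111 CPM in MYC on, 161, 153 and 159 in MYC intermediate and 200, 207 and 195 CPM in MYC off. Each group was clear of the next by more than its own range. Its log2 fold change was 0.77 ± 0.05 in MYC off against MYC on (adjusted p = 5.29e-09, edgeR), 0.46 ± 0.05 in MYC intermediate against MYC on (adjusted p = 4.66e-06) and 0.30 ± 0.05 in MYC off against MYC intermediate (adjusted p = 0.00038).

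Of the effectors, Bax carried nearly all of the signal and fell at each step. Bax had 56.2, 57.5 and 55.0 CPM in MYC on, 34.6, 36.5 and 36.3 in MYC intermediate and 27.6, 29.0 and 26.4 CPM in MYC off, with no overlap between groups. The log2 fold change was -1.06 ± 0.07 in MYC off against MYC on (adjusted p = 2.09e-09, edgeR), -0.64 ± 0.07 in MYC intermediate against MYC on (adjusted p = 1.84e-06) and -0.42 ± 0.07 in MYC off against MYC intermediate (adjusted p = 0.000227). Bax shares exon bases with 1 other row, Gm45808 on the same strand, which held 0 counts in every library.

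Bak1, the other pore former, had a low level that varied between libraries of the same group. It had 1.67, 0.481 and 1.19 CPM in MYC on, 1.64, 1.37 and 0.766 in MYC intermediate and 1.21, 1.00 and 1.55 CPM in MYC off, and the groups overlapped fully. The log2 fold change in MYC off against MYC on was 0.12 ± 0.37 (adjusted p = 0.795, edgeR), with an approximate 95% interval of -0.61 to 0.85. The lowest value, replicate 2 of MYC on, rested on 9 counts, and without that library the estimate was -0.21. Ggnbp1 on the opposite strand shares exon bases with Bak1 and had 732 counts in all libraries, against 314 for Bak1. Its level was 2.59 CPM in MYC off and 3.81 CPM in MYC on, and it was called lower (log2 fold change -0.60 ± 0.18, adjusted p = 0.00788, edgeR).

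**Figure D2:**
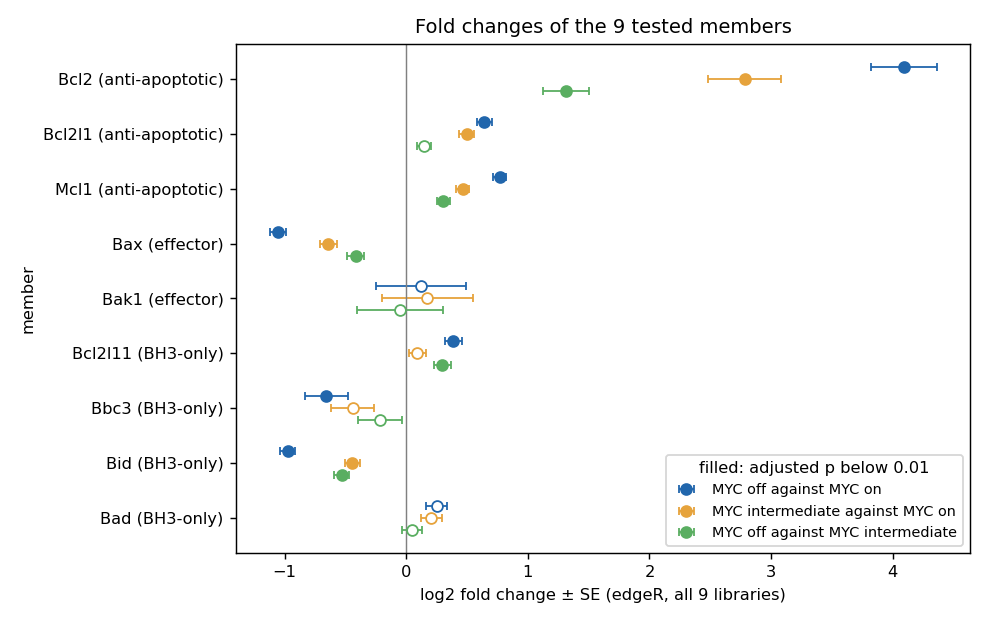
log2 fold change ± SE (horizontal axis) of the 9 tested members (vertical axis) in MYC off against MYC on, MYC intermediate against MYC on and MYC off against MYC intermediate, from 1 edgeR fit of 9 libraries. Filled points have an adjusted p below 0.01. Bcl2 lies furthest to the right at 4.09, Bax (-1.06) and Bid (-0.98) furthest to the left, and the points of Bak1 straddle 0.

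Among the BH3-only members, Bid had the highest level and the largest change. Bid, which caspase-8 cleaves to carry death receptor signals to the mitochondria, stood at 158, 153 and 152 CPM in MYC on, 108, 114 and 116 in MYC intermediate and 86.0, 77.0 and 77.8 CPM in MYC off. The groups did not overlap. Its log2 fold change was -0.98 ± 0.06 in MYC off against MYC on (adjusted p = 2.22e-09, edgeR), -0.44 ± 0.06 in MYC intermediate against MYC on (adjusted p = 3.46e-05) and -0.53 ± 0.06 in MYC off against MYC intermediate (adjusted p = 1.04e-05). Bcl2l13, which overlaps Bid on the opposite strand, had 186 CPM in MYC off and 198 CPM in MYC on, a log2 fold change of -0.13 ± 0.05 that did not pass (adjusted p = 0.0485).

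Bcl2l11, the gene of BIM, was the single called pro-apoptotic member with a rise, and it rose between MYC intermediate and MYC off. Its libraries held 39.5, 40.9 and 41.2 CPM in MYC on, 41.2, 44.2 and 43.1 in MYC intermediate and 53.2, 58.3 and 51.5 CPM in MYC off. MYC on and MYC intermediate overlapped, and all 3 MYC off libraries lay above both. The log2 fold change was 0.39 ± 0.07 in MYC off against MYC on (adjusted p = 0.000149, edgeR), 0.09 ± 0.07 in MYC intermediate against MYC on (adjusted p = 0.318) and 0.30 ± 0.07 in MYC off against MYC intermediate (adjusted p = 0.00311). The last call was lost without replicate 1 of MYC intermediate (adjusted p = 0.0107), replicate 1 of MYC off (0.0108) or replicate 2 of MYC off (0.0304).

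Bbc3, a target of p53 that encodes PUMA, was expressed at under 9 CPM. It had 8.46, 6.47 and 8.48 CPM in MYC on, 6.67, 6.44 and 4.07 in MYC intermediate and 5.29, 5.05 and 4.91 CPM in MYC off. All MYC off libraries lay below all MYC on libraries, and MYC intermediate overlapped with both. It fell by 0.66 ± 0.18 on the log2 scale in MYC off against MYC on (adjusted p = 0.00423, edgeR). This call was lost without replicate 1 of MYC on (adjusted p = 0.0195), replicate 3 of MYC on (0.0247), replicate 2 of MYC off (0.0148) or replicate 3 of MYC off (0.017).

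Bad, whose protein is held inactive when phosphorylated by survival kinases, had 17.6, 17.7 and 18.1 CPM in MYC on, 20.5, 22.1 and 18.7 in MYC intermediate and 20.99, 22.8 and 21.5 CPM in MYC off. The MYC off libraries all lay above the MYC on libraries, but the log2 fold change of 0.25 ± 0.09 did not pass (adjusted p = 0.0181, edgeR), and it passed where library totals alone set the scale (0.29, adjusted p = 0.009). The overlapping gene on the opposite strand, Gpr137, had 9.22 CPM in MYC off and 7.11 CPM in MYC on. Its log2 fold change of 0.33 ± 0.12 did not pass either (adjusted p = 0.0274).

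Pmaip1, the gene of the MCL1-binding protein NOXA, had 0 counts in each of the 9 libraries. Over their 254517689 counts together, 3 counts would correspond to 0.0118 CPM, which is the level that a count of 0 allows for counting error alone. No other annotated gene shares its exon bases. Of 21865 protein-coding rows, 7188 were at 0 in all 9 libraries as well.

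The 3 against 3 exact permutation test (two-sided, on log2 of CPM plus 0.5) cannot go below p = 0.1. In MYC off against MYC on the exact permutation test reached this value for 8 of the 9 tested members, all but Bak1 (p = 0.8), and these are the 8 whose groups did not overlap. The groups did not overlap for 70.0% of all genes tested either. The corresponding number of members was 6 of 9 in MYC intermediate against MYC on (53.5% of all genes) and 6 of 9 in MYC off against MYC intermediate (47.6% of all genes).

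The position of the lower dose between the other groups was also described. On the log2 scale, the change in MYC intermediate amounted to 77.2% of the change in MYC off for Bcl2l1, 67.9% for Bcl2, 67.0% for Bbc3, 60.7% for Bax, 60.6% for Mcl1, 45.5% for Bid and 23.3% for Bcl2l11. The same share was 19.2% for hMYC and had a median of 56.7% over the 7734 genes called in MYC off against MYC on (quartiles 42.8% and 70.4%). The Bbc3 share rests on a change that did not pass in MYC intermediate against MYC on (-0.44 ± 0.18, adjusted p = 0.0539, edgeR). That share was 36.8% without replicate 3 of MYC intermediate and 87.9% without replicate 1. The Bcl2l11 share also rests on a change that did not pass there (0.09 ± 0.07, adjusted p = 0.318, edgeR). With 1 library left out it ranged from 15.8% to 29.6%, and the Bcl2l1 share from 67.5% to 86.4%. Numerator and denominator of these shares use the same MYC on libraries, and the shares were not tested. Tested directly, the distance of MYC intermediate from the midpoint of the other groups passed for 0 of the 9 members in edgeR and 0 in DESeq2, where 1.89% of all genes passed in edgeR. Bcl2 (0.73 ± 0.21 above the midpoint, adjusted p = 0.0613) and Bcl2l1 (0.17 ± 0.05, adjusted p = 0.0638) were the 2 members with an unadjusted p below 0.05.

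Levels of different genes were compared in the deposited TPM, which divide counts by gene length and scale each library to a common total. The anti-apoptotic sum was almost wholly Bcl2l1 and Mcl1. In MYC off, Bcl2l1 stood at 239 ± 6.04 TPM and Mcl1 at 196 ± 6.22 TPM, and Bcl2 at 1.90 ± 0.276 TPM (SD, n = 3 each). In MYC on the levels were 150 ± 2.69 TPM for Bcl2l1, 113 ± 3.35 TPM for Mcl1 and 0.104 ± 0.0232 TPM for Bcl2. Bcl2 thus made up 0.434% of the anti-apoptotic sum in MYC off and 0.0395% in MYC on, and Bcl2l1 exceeded it 109- to 140-fold in the MYC off libraries and 1182- to 1903-fold in the MYC on libraries.

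The order of the abundant members changed with MYC. In MYC on, Bcl2l1 (150 ± 2.69 TPM) lay slightly above Bid (147 ± 2.65 TPM) within each library, although their ranges overlapped between libraries. Bax (120 ± 3.24 TPM) and Mcl1 (113 ± 3.35 TPM) followed. In MYC off, Bid (75.7 ± 3.65 TPM) and Bax (58.8 ± 2.65 TPM) stood far below Bcl2l1 and Mcl1. The ratio of Bid to Mcl1 was 1.29 ± 0.0268 in MYC on, 0.689 ± 0.0375 in MYC intermediate and 0.386 ± 0.0286 in MYC off (SD, n = 3 each).

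Summed by role, the anti-apoptotic members reached 257 to 268 TPM in MYC on, 354 to 372 TPM in MYC intermediate and 427 to 445 TPM in MYC off. The effectors summed to 119 to 124 TPM in MYC on, 73.5 to 79.0 TPM in MYC intermediate and 59.1 to 63.2 TPM in MYC off, nearly all of it Bax. The BH3-only members summed to 204 to 209 TPM in MYC on, 159 to 171 TPM in MYC intermediate and 140 to 144 TPM in MYC off. Bid made up 71.2% of this sum in MYC on, 63.6% in MYC intermediate and 53.1% in MYC off. The fall of the sum was mostly that of Bid, and Bbc3 was lower too (8.01 TPM in MYC off and 12.4 TPM in MYC on). Bcl2l11 (22.6 TPM in MYC off and 17.0 TPM in MYC on) and Bad (36.3 and 29.9 TPM) went the other way. The BH3-only sum per anti-apoptotic sum was 0.326 ± 0.0104 in MYC off and 0.780 ± 0.0162 in MYC on, and the effector sum per anti-apoptotic sum was 0.138 ± 0.00393 in MYC off and 0.461 ± 0.00624 in MYC on (SD, n = 3 each). The ratio of Bcl2l11 to Bcl2l1 was 0.113 ± 0.00469 in MYC on, 0.0857 ± 0.00853 in MYC intermediate and 0.0947 ± 0.0066 in MYC off. These sums weigh transcripts alike whatever the protein made from them and were not tested.

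**Figure D3:**
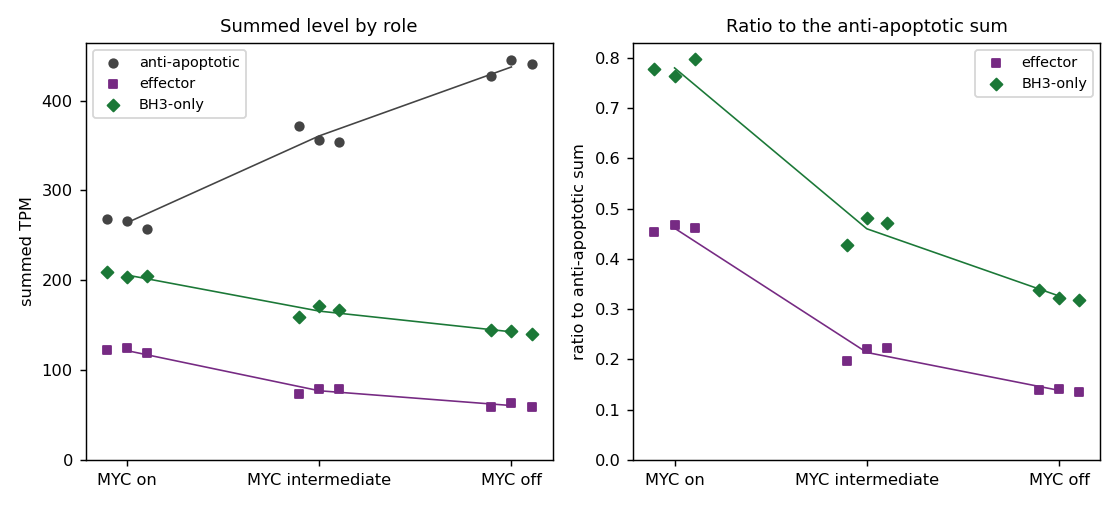
Summed TPM of the anti-apoptotic, effector and BH3-only members (left) and the ratio of the effector and BH3-only sums to the anti-apoptotic sum (right) in MYC on, MYC intermediate and MYC off. Points are libraries, and lines join the group means. The anti-apoptotic sum lies between 257 and 268 TPM in MYC on and between 427 and 445 TPM in MYC off, while both ratios are lower in MYC off than in MYC on.

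To show what sequence lies at the starts of the members, 300-base windows from RefSeq (GRCm38.p6, 250 bases before to 50 after each start) were searched on both strands for CACGTG, the E-box letters that MYC binds with MAX, and for GTAAACA, a FOXO recognition sequence. Windows were found for 9 members, 15 windows in all since some genes have several starts, and none was found for Pmaip1. CACGTG was present in 7.15% and GTAAACA in 3.65% of the 32851 windows of all genes. Counted by gene, the shares were 8.09% and 4.05% of 27025 genes. Among the members, Bax and 1 of the Bbc3 windows held CACGTG, and Bcl2l11 and another Bbc3 window held GTAAACA or its reverse complement. The matches are printed with their neighbouring bases, on the strand of the gene and with the matched letters in capitals.
Bax, chr7:45466891-45466918, minus strand: gcgatgatgatCACGTGactagtcctgc
Bax, chr7:45466849-45466874, minus strand: tgcggggcaccCACGTGagggccgca
Bbc3, chr7:16310356-16310383, plus strand: cggggcgggcgCACGTGgcggcgtcgag
Bbc3, chr7:16310083-16310111, plus strand: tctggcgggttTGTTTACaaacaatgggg
Bcl2l11, chr2:128125800-128125828, plus strand: aagacactaggGTAAACAcgccggggtgg

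Both Bax matches lie near the start site, the first beginning 9 bases before it and the other 35 bases after it. The Bbc3 CACGTG begins 64 bases before the start of its window's transcript. Bax and Bbc3 were lower in MYC off than in MYC on, and Bid, which was lower as well, had no match in its window. Of the members with GTAAACA, Bbc3 was lower and Bcl2l11 higher in MYC off than in MYC on. Bcl2, Bcl2l1, Mcl1, Bak1 and Bad had no match to either motif. No binding was measured in this series, and a match describes these letters only.

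Of 6 anti-apoptotic relatives outside the 10 genes (Bcl2l2, Bcl2a1a to Bcl2a1d and Bcl2l10), none passed the count filter and the highest count in all libraries together was 3. Bcl2l2 and the near-identical Bcl2a1 copies share sequence with other rows, so their counts are uncertain. Of 10 other listed relatives of the family, 5 passed the count filter (Bik, Bnip3, Bnip3l, Bcl2l12 and Bcl2l13). In MYC off against MYC on 1 of them was higher and 1 lower, where 54.9% of all genes were called, with a median log2 fold change of -0.04 against 0.03 over all genes tested. Bik, a BH3-only gene, had 5.40 ± 0.413 CPM in MYC off and 3.02 ± 0.362 CPM in MYC on (log2 fold change 0.80 ± 0.18, adjusted p = 0.00131, edgeR). Bnip3, a mitophagy receptor, had 117 ± 20.7 CPM in MYC off and 159 ± 14.1 CPM in MYC on (-0.47 ± 0.11, adjusted p = 0.00159). Bok and Hrk were at 0 counts in all libraries.

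Downstream of the family, 5 of 18 genes of the mitochondrial death machinery were higher and 9 lower in MYC off than in MYC on, where 27.5% of all genes were higher and 27.4% lower. Their median log2 fold change was -0.19 against 0.03 over all genes tested. Those lower were Endog, Cycs, Vdac1, Vdac2, Aifm1, Opa1, Vdac3, Htra2 and Dffb, all but Dffb residents of the mitochondrion. Those higher were Casp6, Apaf1, which builds the apoptosome, and Birc2, Birc3 and Birc5 of the inhibitor of apoptosis family. Endog, a mitochondrial nuclease, had 28.9 ± 0.984 CPM in MYC off and 70.2 ± 3.91 CPM in MYC on (log2 fold change -1.32 ± 0.08, adjusted p = 4.48e-10, edgeR). Cycs, which encodes cytochrome c, had 42.3 ± 3.45 CPM in MYC off and 87.8 ± 5.12 CPM in MYC on (-1.08 ± 0.12, adjusted p = 7.52e-07). Casp6, an executioner caspase, had 39.1 ± 2.06 CPM in MYC off and 17.6 ± 1.66 CPM in MYC on (1.12 ± 0.09, adjusted p = 3.77e-08). Xiap, Diablo, Casp9 and Dffa did not pass, with log2 fold changes between -0.13 and 0.07.

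**Figure D4:**
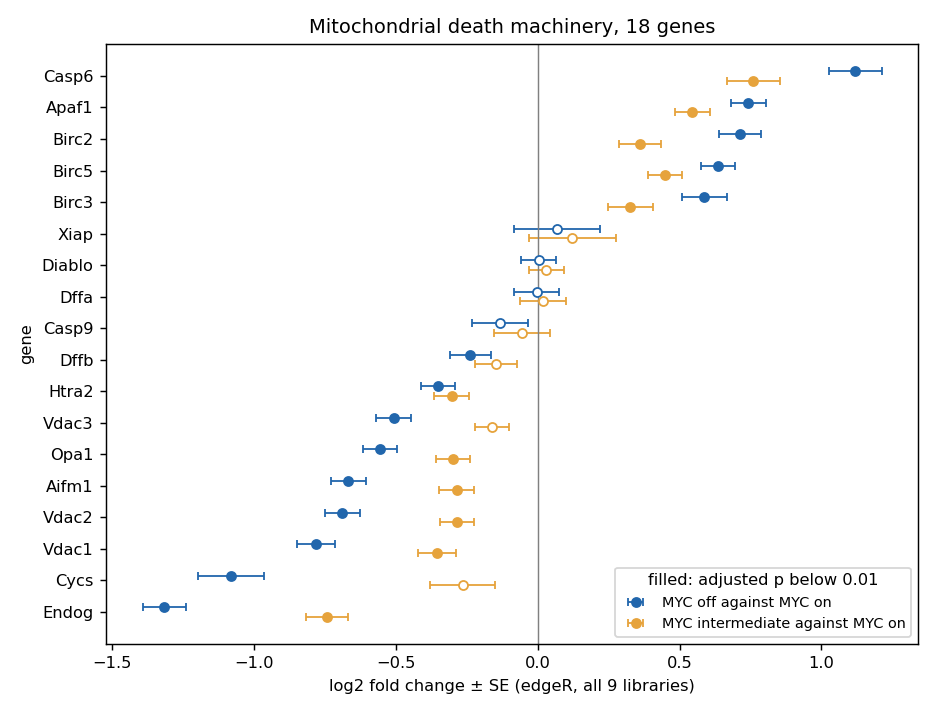
log2 fold change ± SE (horizontal axis) of 18 genes of the mitochondrial death machinery (vertical axis) in MYC off against MYC on and in MYC intermediate against MYC on, from 1 edgeR fit of 9 libraries. Filled points have an adjusted p below 0.01. Genes run from Endog at -1.32 to Casp6 at 1.12 in MYC off against MYC on.

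Of 28 tested regulators known for the family, 10 were higher and 9 lower in MYC off than in MYC on, where 27.5% of all genes were higher and 27.4% lower, with a median log2 fold change of 0.04 against 0.03 over all genes tested. Foxo1, a transcription factor for which Bcl2l11 is a known target, averaged 39.4 ± 1.41 CPM with MYC on, 70.3 ± 5.33 at the lower dose and 101 ± 3.37 at the higher dose (SD over 3 libraries). Its log2 fold change in MYC off against MYC on was 1.32 ± 0.07 (adjusted p = 2.67e-10, edgeR). Nr3c1, the glucocorticoid receptor, had 230 ± 7.65 CPM in MYC off and 134 ± 6.996 CPM in MYC on (0.74 ± 0.05, adjusted p = 6.28e-09), and Atf4, a factor of the integrated stress response, had 63.6 ± 5.29 CPM in MYC off and 104 ± 1.27 CPM in MYC on (-0.74 ± 0.07, adjusted p = 1.02e-07). How these genes relate to the members was not tested.

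The genes whose pair of log2 fold changes (MYC intermediate and MYC off, each against MYC on) lay nearest to that of Bcl2 were Pglyrp2, Myo1f and Spsb1, at distances of 0.14, 0.19 and 0.19 on the log2 scale, out of 9203 protein-coding genes with at least 5 CPM in 1 group. Nearest to Bax were Ipo11, a nuclear import receptor, Pyurf and AW209491, at distances of 0.0095, 0.023 and 0.025. Likeness was measured over 9 libraries. These distances are smaller than the SE of the members' own log2 fold changes (0.27 and 0.30 for Bcl2, 0.07 for Bax), so the order among near candidates is not resolved.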

How the data were processed

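Libraries were made from oligo(dT)-primed cDNA of polyA RNA and do not mark the strand. Per the submitters' processing notes, featureCounts, STAR 2.5.4b and cutadapt 1.16 were used with mm10, while the annotation release and strand setting are not given in the sources used here. The counts deposited by the authors are whole reads per gene, and the deposited TPM divide them by gene length. Symbols came from GENCODE M21 for 53274 of 53380 rows. Counts were fitted in R 4.3.3 with edgeR 4.0.16 (TMM, default filter, all 9 libraries, group only), with Benjamini-Hochberg adjustment over 14098 genes and calls below 0.01. All tests were two-sided. The SE is the log2 fold change over the square root of F. The fit was tested on simulated counts with known changes. DESeq2 1.42.0, other scalings and filters, leaving out each library and a replicate block were alternatives.

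Deviations of same-numbered libraries from their group means correlated between MYC on and MYC off (r = 0.375, 0.253 and 0.220 over 9946 genes). They did not throughout with MYC intermediate (0.132, -0.180 and -0.165 with MYC on). Replicate 2 of MYC on also correlated with replicate 3 of MYC off (0.147). Deviations from a group mean cancel within the group, so some matching of libraries tends to correlate positively whatever the pairing. The correlations were not tested and do not establish a pairing. Replicate 1 of MYC intermediate correlated with replicate 1 of MYC off (0.371). Across numbers, replicate 2 of MYC intermediate correlated with replicate 3 of MYC on (0.377) and of MYC off (0.251). Replicate 3 of MYC intermediate correlated with replicate 2 of MYC on (0.169) and of MYC off (0.257). MYC intermediate thus correlated most with the other groups with numbers 2 and 3 crossed. This matching was read from the same correlations, and no label states a pairing. No label says that replicates came from separate cultures, so the p-values cover the spread among these libraries, which may be technical. Named genes were the 10 members, up to 3 called genes of each list by size of change with at least 5 CPM in 1 group, and the 3 nearest profiles to Bcl2 and Bax, the members with the largest changes. Some listed genes are not reported here. Other list genes were named after their values were seen. The members and lists were chosen with earlier results of these data known.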

Additional observations from a re-analysis of the deposited data

How the results depend on the processing

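The number of members called stayed within 1.5 times under every alternative run (6 to 8 in MYC off against MYC on, 5 throughout in MYC intermediate against MYC on, 4 to 5 in MYC off against MYC intermediate and 0 against the midpoint). The replicate block in all 9 libraries changed no call of a member. Nor did the block in the 6 libraries of MYC off and MYC on, which was added after seeing the data. Both blocks followed the replicate numbers. Replicates 2 and 3 of MYC intermediate correlated negatively with the same numbers of MYC on (r = -0.180 and -0.165). The block in all 9 libraries therefore cannot show how pairing bears on the comparisons with MYC intermediate. The count of all genes called against the midpoint was less stable, at 266 in edgeR, 476 in DESeq2, 850 with no count filter and 430 with the replicate block, and 122 to 386 with 1 library left out. Besides the losses for Bbc3 and Bcl2l11 given with their values, Bcl2l11 in MYC off against MYC intermediate missed the threshold with no count filter (adjusted p = 0.0101). Uncalled values changed sign when 1 library was left out. Bak1 ranged from -0.209 to 0.474 in MYC off against MYC on, -0.154 to 0.530 in MYC intermediate against MYC on, -0.314 to 0.206 in MYC off against MYC intermediate and -0.147 to 0.374 against the midpoint, Bad from -0.0204 to 0.109 in MYC off against MYC intermediate, and Bbc3 from -0.249 to 0.0869 against the midpoint. With exon lengths of M21, which are longer for Bad, the BH3-only sum was 199 TPM in MYC on, 158 TPM in MYC intermediate and 135 TPM in MYC off. Few counts limit the MYC on level of Bcl2 (20 over its 3 libraries). Bak1 had low counts too, and they varied between libraries (34, 9 and 35 in MYC on).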
